A study of Mus musculus with 2 samples.

Results

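Bone morphogenetic protein (BMP) signalling and the ID genes were examined in messenger RNA of adult murine mesenchymal stem cells with and without Dicer, the enzyme that cuts microRNA precursors into mature microRNAs. The 10 genes are the ligands Bmp2 and Bmp4, the receptors Bmpr1a and Bmpr2, the secreted antagonist Grem1, the membrane decoy Bambi, the inhibitory SMAD gene Smad6 and the target genes Id1, Id2 and Id3. They were taken by their symbols from the authors' deposited table of 23227 genes, and all 10 were found there. The labels name the cells in 2 ways, as mesenchymal stem cells by their source and as fibroblasts in the sample titles and the cell type field. The wild type (WT) line carries intact floxed Dicer alleles (Dicer f/f) and the knockout (KO) line lacks Dicer (Dicer -/-). Each genotype is 1 immortalised line grown from 1 cell, cultured below confluence in Alpha-MEM with serum, so that genotype and clone cannot be told apart. The sources used here do not give the age of the donor mice or the way the alleles were deleted. The labels list 1 sample per genotype, but each deposited mean resolved into whole reads of 2 libraries, so that 4 libraries were recovered. Within each genotype they are named deeper and shallower by their totals (15369250 and 14135422 reads in genes in WT, 15718369 and 14969532 in KO). Nothing in the sources says whether they came from separate cultures, so their spread may be technical.

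BMP ligands bind a pair of type I and type II receptors, which phosphorylate SMAD1, SMAD5 and SMAD9. These join SMAD4, enter the nucleus and switch on target genes, among which the ID genes are the best known. ID proteins have a helix-loop-helix but no DNA-binding part, and they bind E proteins and keep them off DNA. Several targets act as brakes on the same pathway: SMAD6 blocks the receptor-activated SMADs, and BAMBI is a receptor-like protein without kinase activity. In mesenchymal stem cells BMP signalling is known for driving bone and cartilage formation.

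The samples were first checked against their labels. Dicer1 had 804 and 943 normalised reads in the deeper and the shallower WT library and 573 and 557 in the KO libraries. The ratio was 0.647, lower in KO without reaching a 2-fold difference, with an adjusted p of 0.497 in the authors' deposited table. These reads are totals over the gene, and which part of it they came from was not tested. Of 10 mesenchymal stem cell markers, 9 had at least 20 normalised reads in both genotypes, and Thy1 was at 0 in both. Of 8 fibroblast markers, 6 were at least 20 in both and Dcn and Lum were not. By the 2-fold rule given below, some of these markers differed between genotypes. Among the stem cell markers 1 was higher in KO, Vcam1, with mean normalised reads of 1269 in WT and 3568 in KO. Among the fibroblast markers the collagen gene Col3a1 was higher (3112 and 17363), and Col1a1 (41238 and 17828) and Col1a2 (77682 and 37792), which encode type I collagen, were lower. Markers of blood cells summed to between 22.2 and 34.8 normalised reads per library and those of endothelial cells to between 9.64 and 18.9. Those of epithelial cells summed to between 15.4 and 70.6. By the same measure of at least 20 in both genotypes, 1 of 5 blood markers passed, Cd68 (means of 26.9 in WT and 29.1 in KO). Of 5 epithelial markers 1 passed, Krt8 (26.3 and 34.2), and of 4 endothelial markers 0 did. Cd3e and Epcam were at 0. The part of these markers in the results was not tested.

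Sequences are shown for 2 ID genes that went opposite ways and for the antagonist Grem1, since SMAD complexes act through short DNA elements near target genes. RefSeq promoters (GRCm38.p6, 250 bases before to 50 after the gene's start) were matched for 7 of the 10 genes; Bmp2, Id1 and Bambi had no entry. They were searched on both strands for GGCGCC, a GC-rich element bound by SMAD1 and SMAD5, and for CAGAC, a SMAD element; in the sequences shown, no 2 matches overlap. Capitals mark the matches, and each sequence is written along the gene's own strand.
Id3, chr4:136143572-136143871, plus strand: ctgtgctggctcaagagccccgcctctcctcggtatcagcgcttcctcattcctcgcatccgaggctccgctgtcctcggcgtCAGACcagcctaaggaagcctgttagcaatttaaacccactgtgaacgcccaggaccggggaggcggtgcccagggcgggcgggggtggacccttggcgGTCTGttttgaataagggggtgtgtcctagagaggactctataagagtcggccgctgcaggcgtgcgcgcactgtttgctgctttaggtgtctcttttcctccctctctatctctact
Id2, chr12:25096043-25096342, minus strand: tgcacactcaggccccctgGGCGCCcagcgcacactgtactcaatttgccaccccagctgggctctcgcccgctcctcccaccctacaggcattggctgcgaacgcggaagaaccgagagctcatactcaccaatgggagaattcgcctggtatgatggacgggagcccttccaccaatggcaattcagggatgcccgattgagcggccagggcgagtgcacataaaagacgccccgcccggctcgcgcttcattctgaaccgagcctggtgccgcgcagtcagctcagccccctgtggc
Grem1, chr2:113758599-113758898, minus strand: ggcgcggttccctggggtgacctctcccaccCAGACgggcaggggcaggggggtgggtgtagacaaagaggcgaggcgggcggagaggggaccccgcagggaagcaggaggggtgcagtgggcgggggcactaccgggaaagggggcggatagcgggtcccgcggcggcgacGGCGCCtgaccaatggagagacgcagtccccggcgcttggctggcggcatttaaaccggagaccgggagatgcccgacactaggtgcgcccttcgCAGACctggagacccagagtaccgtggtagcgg

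Id3 held CAGAC at 2 places and no GGCGCC, Id2 held GGCGCC at 1 place and no CAGAC, and Grem1 held both, at 1 and 2 places. Bmpr1a and Bmpr2 each held GGCGCC at 1 place, while Bmp4 and Smad6 held neither element in this window. Over all 32851 RefSeq promoters of this length, 11.9% held GGCGCC and 49.6% held CAGAC. The E-box CANNTG, the element of E proteins, was found in 72.3% of all promoters and in those of Bmp4 (3 places), Smad6 (1) and Id2 (1). These matches describe the letters of a short window and say nothing on binding.

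Values below are normalised reads, that is reads divided by the authors' size factors, which put the libraries on 1 scale. Testing required a mean of 20 over the genotypes, which 9 of the 10 genes reached and Bmp2 did not. A gene was called lower or higher in KO when the ratio of the authors' means, KO over WT, was at most 0.5 or at least 2 and its 95% exact (Clopper-Pearson) counting interval excluded 1; such intervals cover counting error only. By this rule 5 of the 9 were lower (Bmp4, Smad6, Bambi, Id1 and Id3), 1 was higher (Grem1) and 3 were neither (Bmpr1a, Bmpr2 and Id2). Of all 11710 tested genes, 8.56% were lower and 8.92% higher. The median log2 ratio of the 9 was -1.30, which is the value of Id3, beside -0.01 for all tested genes. The ratio was below 1 in 55.6% of the 9, near the 50.4% of all tested genes. Bambi alone of the 9 passed an adjusted p of 0.1 in the authors' deposited table, where 5.34% of tested genes passed as lower and 5.56% as higher. Its KO mean of 17.9 was under 20, so it reached the mean for testing only through WT and could not come out higher. limma on the 4 libraries, at an adjusted p of 0.05, called Bambi lower and Id2 higher, where it called 4.14% of tested genes lower and 4.61% higher. In 5 of the 9 genes both KO values were below both WT values and in 3 they were above, beside 28.8% and 30.4% of all tested genes. Each value is an average over many cells, so fewer cells that express a gene and less RNA per cell cannot be told apart. Every ratio rests on reading the table's first condition as WT and its second as KO, as its title orders them.

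**Figure D1:**
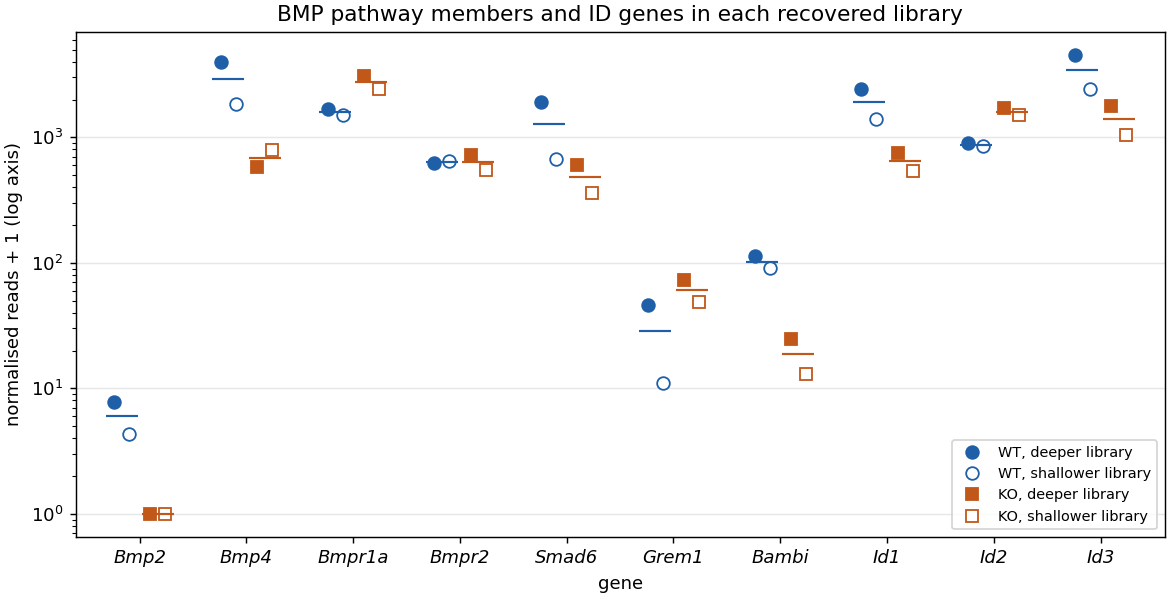
Normalised reads plus 1 (log axis) of the 10 genes in each of the 4 recovered libraries; circles are WT, squares KO, filled symbols the deeper and open symbols the shallower library, and lines the authors' means. The KO libraries lie below both WT libraries for Bmp2, Bmp4, Smad6, Bambi, Id1 and Id3, above them for Bmpr1a, Grem1 and Id2, and among them for Bmpr2.

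Among ligands, Bmp4 was the abundant one and was lower in KO. It had 3954 normalised reads in the deeper and 1843 in the shallower WT library, against 584 and 794 in the KO libraries. The genotypes did not overlap, although the WT libraries were themselves 2.15-fold apart. The authors' means of 2899 and 689 gave a ratio of 0.238 (0.224 to 0.252), with an adjusted p of 0.188 in the authors' deposited table and 0.0544 by limma. Bmp4 encodes a ligand that promotes bone and fat lineage commitment in mesenchymal cells. Its ratio was 0.374 without the deeper WT library, so the size of the difference depended on that library.

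Bmp2, a ligand known for inducing bone, was barely detected. It had 7 and 3 reads in the WT libraries and 0 in each KO library. Its WT mean was 3.53 times the value of a floor of 3 reads over both KO libraries. The counting interval of its ratio reached up to 0.411, and at this depth Bmp2 was not tested. Of 14 BMP ligand genes listed, only Bmp4 and Bmp5 reached the mean for testing. Bmp5 had 533 and 228 normalised reads in WT and 476 and 247 in KO, a ratio of 0.950 (0.858 to 1.05), and the genotypes overlapped. Without the deeper WT library the ratio of Bmp5 was 1.59. Per kilobase of transcript, Bmp4 made up 93.2% and 93.7% of the sum of Bmp4 and Bmp5 in the WT libraries and 69.5% and 85.6% in the KO libraries.

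None of the tested receptor genes was called lower. Bmpr1a encodes a type I receptor, the kinase that phosphorylates SMAD1, SMAD5 and SMAD9. It had 1683 and 1518 normalised reads in WT and 3054 and 2440 in KO, so both KO values were above both WT values. Its ratio of 1.72 (1.64 to 1.79) did not reach 2-fold, with an adjusted p of 0.229 in the authors' deposited table and 0.0713 by limma. Bmpr2, the type II receptor, had 624 and 649 normalised reads in WT and 723 and 550 in KO, and the genotypes overlapped. Its ratio was 1.00 (counting interval 0.925 to 1.08), and leaving out 1 library at a time moved it from 0.865 to 1.14. Of 11 receptor and co-receptor genes listed, 7 were tested, of which 1 was higher and 0 were lower. Of all tested genes, 8.92% were higher and 8.56% lower. Both KO values were above both WT values in 4 of the 7 and below in 2, beside 30.4% and 28.8% of all tested genes. The receptor gene called higher was Rgma, a co-receptor, at 147 and 48.2 normalised reads in WT and 545 and 204 in KO. Its ratio of 3.85 (3.29 to 4.52) had an adjusted p of 0.528 in the authors' deposited table and ranged from 2.10 without the deeper KO library to 7.77 without the deeper WT library, with 2.56 when the shallower WT library was dropped.

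Smad6, an inhibitory SMAD and a classical target of the pathway, was lower in KO, with libraries of each genotype far apart. It had 1895 and 672 normalised reads in WT and 604 and 362 in KO. The shallower WT library thus stood near the deeper KO library, though the genotypes did not overlap. The ratio of the means was 0.377 (0.350 to 0.405), with an adjusted p of 0.690 in the authors' deposited table and 0.217 by limma. Without the deeper WT library the ratio was 0.720 and the gene was no longer called. Smad7, the other inhibitory SMAD, had 822 and 769 normalised reads in WT and 750 and 903 in KO, a ratio of 1.04 (0.969 to 1.11) with the genotypes overlapping. Reads of Smad6 per read of Smad7 within a library were 2.30 and 0.873 in WT and 0.806 and 0.401 in KO.

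Among the other SMADs, Smad1 alone was called. It had 593 and 565 normalised reads in WT and 125 and 141 in KO, with libraries of each genotype close together. The ratio was 0.230 (0.201 to 0.263), with an adjusted p of 9.52e-06 in the authors' deposited table and 0.0138 by limma. Smad5, at 1689 and 1864 in WT and 912 and 1019 in KO, had a ratio of 0.544 and did not reach the 2-fold rule; limma gave an adjusted p of 0.0417, against 0.147 in the authors' deposited table. Smad9 overlapped between genotypes (984 and 828 in WT, 924 and 471 in KO), with a ratio of 0.770 that was 1.02 without the shallower KO library. Smad4, the shared partner, had a ratio of 1.09 (1.03 to 1.15) and an adjusted p of 1 in the authors' deposited table. Of 12 SMADs and SMAD regulators, all tested, 2 were lower (Smad1 and Smad6), 0 higher and 10 neither. The shares of all tested genes were 8.56% lower and 8.92% higher. Per kilobase, Smad1, Smad5 and Smad9 summed to 597 and 587 normalised reads in the WT libraries and to 344 and 280 in the KO libraries. Smad1 made up 26.3% and 25.5% of that sum in WT and 9.63% and 13.4% in KO.

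Bambi, the membrane decoy, was lower in KO by every rule applied with all libraries. It had 113 and 89.7 normalised reads in WT and 23.9 and 11.9 in KO, so the genotypes were well apart. The ratio was 0.177 (0.122 to 0.252), from 197 reads in WT and 38 in KO. limma gave an adjusted p of 0.0454, against 0.00143 in the authors' deposited table. Its ratio was 0.118 without the deeper KO library and between 0.159 and 0.236 without each of the others. Bambi had a KO mean under 20 and passed the filter on low values through WT, so it could not come out higher.

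Grem1 encodes gremlin, a secreted protein that binds BMP2 and BMP4. It was the 1 gene of the 10 called higher in KO, at 45.3 and 10.1 normalised reads in WT and 71.7 and 47.8 in KO. The deeper WT library nearly reached the shallower KO library. The ratio was 2.16 (1.56 to 3.01), with an adjusted p of 0.643 in the authors' deposited table and 0.308 by limma. The call was lost when the shallower WT (1.32) or the deeper KO library (1.72) was dropped, and the ratio was 5.92 without the deeper WT library.

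Several other secreted antagonists were lower in KO. Of 16 antagonists and modulators listed, 9 were tested, of which 5 were lower, 1 was higher (Grem1) and 3 were neither. The shares of all tested genes were 8.56% lower and 8.92% higher. Of the 5, Chrdl1 and Nog had KO means under 20. Both reached the mean for testing only through WT, so they could not come out higher. At an adjusted p of 0.1 in the authors' deposited table, 3 of the 9 were lower, Chrdl1 among them, and 0 higher. That rule called 5.34% of all tested genes lower and 5.56% higher. Chrdl1, a chordin-like antagonist, had 450 and 502 normalised reads in WT and 23.0 and 5.97 in KO. Its ratio of 0.0304 (0.0205 to 0.0435) had an adjusted p of 3.26e-20 in the authors' deposited table, and it was 0.0125 without the deeper and 0.0483 without the shallower KO library. Nog, which encodes noggin, a tight binder of BMP4, had 75.2 and 4.48 normalised reads in WT and 2 reads in all in KO. Its ratio of 0.0231 (0.00275 to 0.0861) rested on the deeper WT library: without it the ratio was 0.205 and Nog was not called. Dropping the shallower WT library gave 0.0122 and dropping the shallower KO library 0.0462, and 0 reads remained in KO without the deeper one.

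Nbl1, a gremlin relative, had 253 and 308 normalised reads in WT and 148 and 54.7 in KO, a ratio of 0.362 that was 0.195 without the deeper KO library and, no longer called, 0.528 without the shallower one. Fst, encoding follistatin, which binds activins and some BMPs, was at 628 and 352 in WT and 235 and 200.0 in KO, a ratio of 0.444 that was 0.617 and not called without the deeper WT library. Fstl1, a secreted follistatin-like protein, was abundant, at 13829 and 13439 in WT and 6237 and 6542 in KO. Its ratio was 0.469 (0.459 to 0.479). In the authors' deposited table the adjusted p was 0.0193 for Nbl1, 0.301 for Fst and 0.0284 for Fstl1. By limma it was 0.127, 0.113 and 0.0360, so limma did not call Nbl1.

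The ID genes split. Id1 and Id3 were lower in KO, while Id2 was not. Id1 had 2406 and 1405 normalised reads in WT and 749 and 534 in KO. The genotypes did not overlap, and the ratio was 0.337 (0.316 to 0.358). In the authors' deposited table the adjusted p of 0.103 just missed the threshold of 0.1, and limma gave 0.0585. Id1 stayed called without each library, with a highest ratio of 0.457 without the deeper WT library. Id3 had 4513 and 2410 normalised reads in WT and 1767 and 1043 in KO, again without overlap. Its ratio was 0.406 (0.389 to 0.424), with an adjusted p of 0.361 in the authors' deposited table and 0.125 by limma. The call was lost without the deeper WT library (0.583) and without the shallower KO library (0.510).

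Id2 had 900.3 and 845 normalised reads in WT and 1696 and 1511 in KO, and both KO values were above both WT values. Libraries of 1 genotype were close together, in contrast to Id1 and Id3. The ratio was 1.84 (1.73 to 1.95), short of 2-fold, and ranged from 1.73 to 1.94 with 1 library left out. limma gave a log2 difference of 0.87 (SE 0.16) with an adjusted p of 0.0408, and the authors' deposited table an adjusted p of 0.150. Id2 is induced by BMP and by other signals and shares E protein partners with Id1 and Id3. Id4, the fourth family member, had 47.2 and 7.85 normalised reads in WT and 1 read in all in KO, and its mean was below that for testing.

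The split of the ID genes was also read within each library, where scaling between libraries has no part. These ratios come from the same reads, so they restate the split and are no separate support. Reads of Id1 per read of Id2 were 2.67 and 1.66 in the WT libraries and 0.441 and 0.354 in the KO libraries. Reads of Id3 per read of Id2 were 5.01 and 2.85 in WT and 1.04 and 0.690 in KO. Reads of Id1 per read of Id3 moved less, from 0.533 and 0.583 in WT to 0.424 and 0.512 in KO. Per kilobase of transcript, Id2 made up 7.53% and 12.2% of the summed ID genes in WT and 29.8% and 37.5% in KO. Id1 made up 34.1% and 34.3% in WT and 22.3% and 22.5% in KO. The family's sum was 6075 and 3528 normalised reads per kilobase in WT and 2890 and 2044 in KO.

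**Figure D2:**
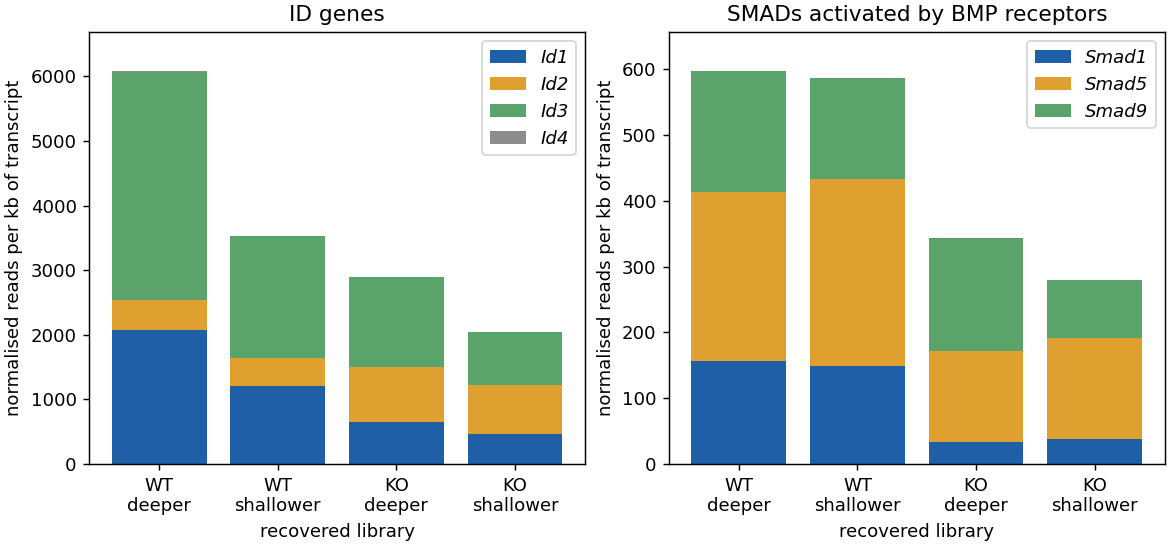
Normalised reads per kilobase of the longest annotated coding transcript, stacked by gene, in each recovered library: Id1 to Id4 on the left, Smad1, Smad5 and Smad9 on the right. Id1 and Id3 shrink and Id2 grows from WT to KO, and Smad1 makes up 26.3% and 25.5% of its sum in WT and 9.63% and 13.4% in KO.

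Among the other listed targets and transcription factors, Msx1, Msx2, Dlx5 and Zfp423 were called lower, while Runx2 and Atoh8 were not. Of 11 targets and transcription factors listed, the ID genes included, 9 were tested, of which 6 were lower, 0 higher and 3 neither. The shares of all tested genes were 8.56% lower and 8.92% higher. Of the 6, Msx1 and Msx2 had KO means under 20. Both reached the mean for testing only through WT, so they could not come out higher. Msx2, a homeobox gene of bone and limb, had 212 and 165 normalised reads in WT and 5 reads in all in KO. Its ratio of 0.0126 (0.00407 to 0.0297) had an adjusted p of 3.04e-16 in the authors' deposited table. Msx1 was at 58.8 and 51.6 in WT and 11.0 and 6.97 in KO, a ratio of 0.163 with an adjusted p of 0.0156 in the authors' deposited table. Dlx5, a homeobox gene of bone formation, was at 1014 and 392 in WT and 168 and 72.6 in KO. Its ratio of 0.171 had an adjusted p of 0.273 in the authors' deposited table, and it was 0.307 without the deeper WT library and 0.103 without the deeper KO library. Zfp423, a SMAD partner, overlapped between genotypes: its ratio of 0.428 ranged from 0.0908 without the deeper KO library to 1.08 without the deeper WT library, and was 0.267 without the shallower WT and 0.764 without the shallower KO library. Runx2, the master gene of bone cell commitment, had 3451 and 3170 normalised reads in WT and 1991 and 1356 in KO, without overlap. Its ratio of 0.506 just missed the 2-fold rule, with an adjusted p of 0.0753 in the authors' deposited table and 0.0675 by limma. Runx2 was called lower without the shallower WT (0.485) or the deeper KO library (0.410). Atoh8 was at 949 and 587 in WT and 772 and 708 in KO, a ratio of 0.962 with the genotypes overlapping.

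The E protein genes, whose products the ID proteins hold off DNA, did not reach the 2-fold rule. Tcf3 (E2A) had 2288 and 2212 normalised reads in WT and 1315 and 1344 in KO, a ratio of 0.591 with an adjusted p of 0.0457 by limma and 0.253 in the authors' deposited table. Tcf12 (HEB) was at 2629 and 2639 in WT and 1810 and 1564 in KO, a ratio of 0.641 without overlap. Tcf4 (E2-2) overlapped between genotypes, with a ratio of 0.841.

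**Figure D3:**
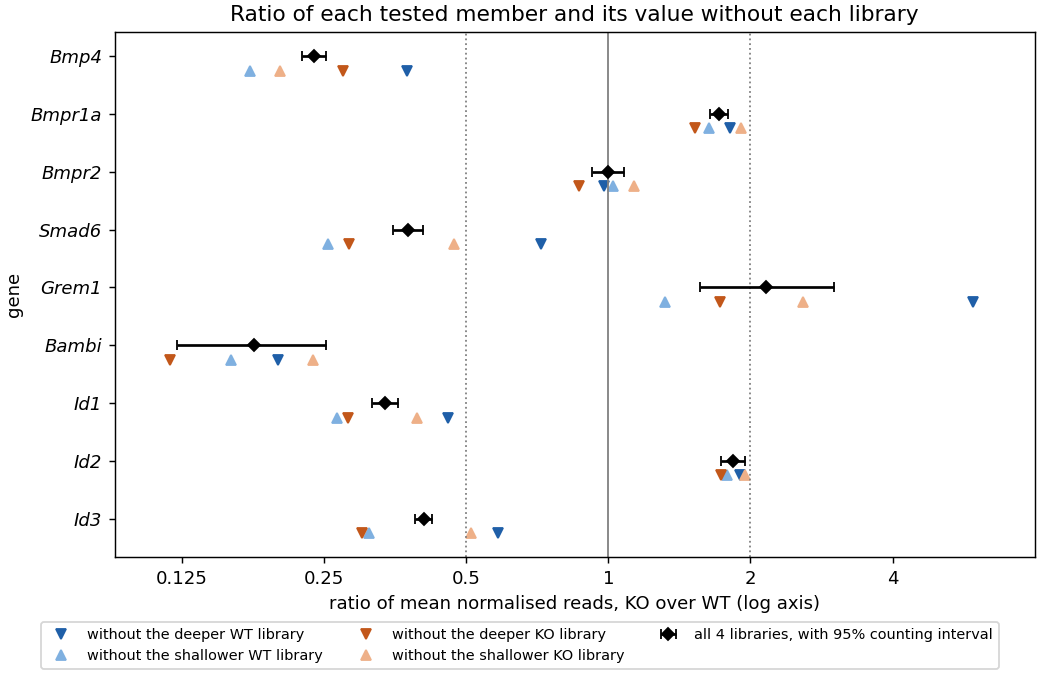
Ratio of mean normalised reads, KO over WT (log axis), of the 9 tested genes: diamonds with bars are the ratio over all 4 libraries and its 95% counting interval, triangles the ratio with 1 library left out, and dotted lines the 2-fold rule. Without the deeper WT library Smad6 (0.720) and Id3 (0.583) leave the called range, while Bmp4, Bambi and Id1 stay at or below 0.457 in every case.

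Over the whole list of 68 BMP pathway genes, the 10 included, 43 were tested, of which 15 were lower, 2 higher and 26 neither. Of all tested genes, 8.56% were lower and 8.92% higher. Of the list's 15 lower genes, 5 (Nog, Chrdl1, Bambi, Msx1 and Msx2) had KO means under 20. These 5 reached the mean for testing only through WT, so they could not come out higher. Over all tested genes, 360 (3.07%) had a KO mean under 20, and 294 of these were called lower. At an adjusted p of 0.1 in the authors' deposited table, 8 of the 43 were lower and 0 higher, and 4 of the 8 were among those 5 genes. That table's adjusted p called 5.34% of all tested genes lower and 5.56% higher. By its unadjusted p under 0.05, 14 were lower and 4 higher, where 9.91% of tested genes were lower and 9.46% higher. limma called 8 of the 43 lower, 4 of them among the 5, and 1 higher, beside 4.14% and 4.61% of all tested genes. The median log2 ratio of the 43 was -0.51, against -0.01 for all tested genes. Without the 10 genes, 34 were tested, of which 10 were lower, 1 was higher and 23 were neither, with a median of -0.49. The list was chosen with results of these data known, so these counts describe it and are no independent support. In 23 of the 43 genes both KO values were below both WT values and in 9 they were above. The shares of all tested genes were 28.8% below and 30.4% above.

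**Figure D4:**
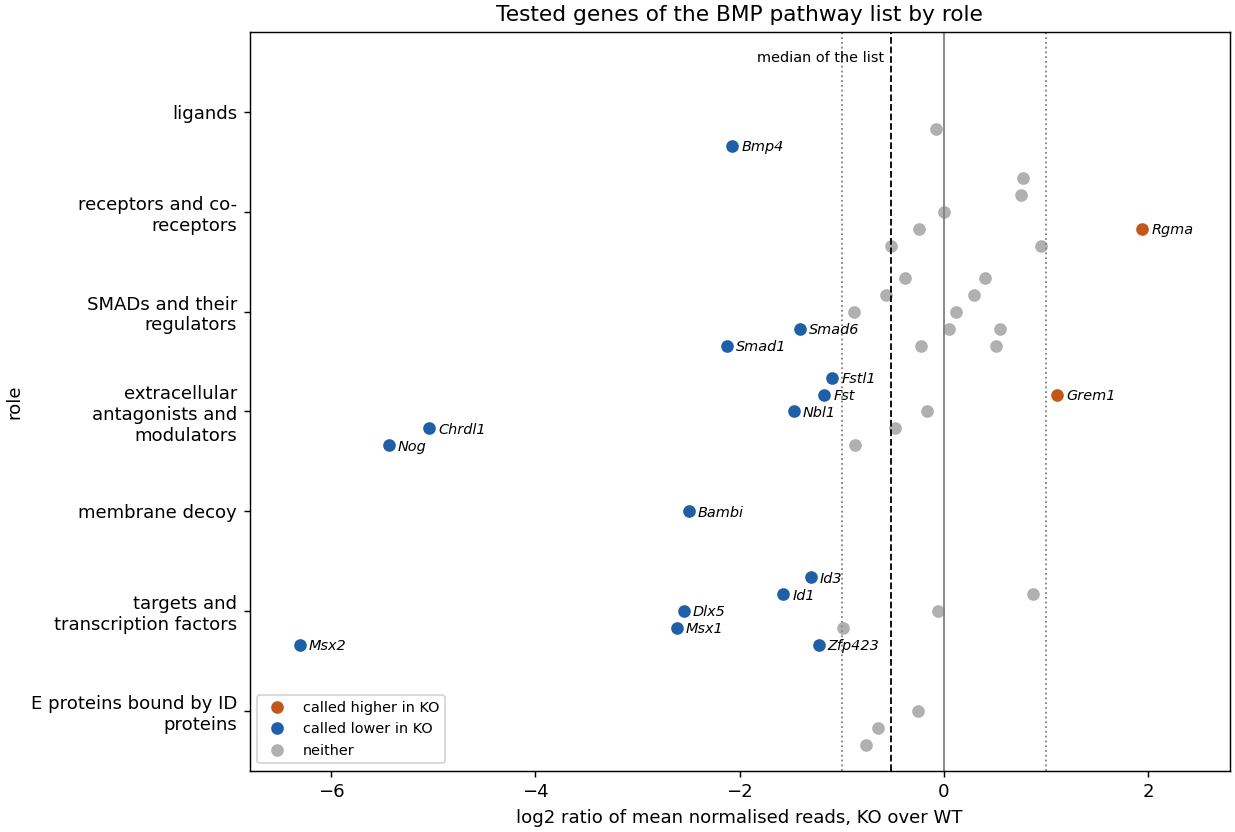
Log2 ratio of mean normalised reads, KO over WT, of the 43 tested genes of the BMP pathway list, in rows by role; colour shows the call, dotted lines the 2-fold rule and the dashed line the list's median of -0.51. Called genes are named; most lie to the left, with Rgma and Grem1 alone on the right.

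The order of levels was compared per kilobase of the longest annotated coding transcript, since reads also scale with length. In WT, Id3 was highest at 2709 normalised reads per kilobase, followed by Id1 (1643), Bmp4 (1404), Id2 (443), Smad6 (432), Bmpr1a (269), Bmpr2 (49.3), Bambi (19.95), Grem1 (6.68) and Bmp2 (1.42). The libraries of Id3, Id1 and Bmp4 overlapped between neighbours in that order, as did those of Id2 and Smad6 and those of Smad6 and Bmpr1a. In KO the order began with Id3 (1099), Id2 (814), Id1 (553), Bmpr1a (461) and Bmp4 (334), and continued with Smad6 (163), Bmpr2 (49.4), Grem1 (14.4) and Bambi (3.53). The KO libraries of Id3 and Id2 overlapped, as did those of Id1 and Bmpr1a.

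Since Dicer makes microRNAs, sites of 10 microRNA families were counted in the longest annotated 3' untranslated region of each gene. A site is 7 bases complementary to the microRNA's seed, its bases 2 to 8. The families searched were let-7, miR-15/16, miR-17, miR-19, miR-21, miR-92a, miR-26, miR-29, miR-30 and miR-130. Mature sequences from RefSeq (GRCm38.p6) are given for the families whose sites are shown, with the seed in capitals.
miR-17-5p: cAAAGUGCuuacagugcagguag
miR-19b-3p: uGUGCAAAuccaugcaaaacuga
miR-92a-3p: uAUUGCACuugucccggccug
miR-21a-5p: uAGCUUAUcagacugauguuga

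Bmpr2, whose level was nearly the same in both genotypes, had the most sites, 10 from 8 of the families in a region of 8529 bases, where the median of tested genes was 1220 bases. Some of them overlap, such as those of miR-19, miR-130 and miR-17 at bases 198, 199 and 201. Bmp4, Id1 and Id3, which were lower in KO, had 0 sites of these families in regions of 339, 563 and 536 bases. Id2 had 1, for miR-19. Smad6 had 1 for miR-17 and 1 for miR-92a, in 448 bases. Bmpr1a and Bambi had 2 each (3810 and 4004 bases), and Grem1 and Bmp2 had 1 each. No let-7 site was found in any of the 10 genes. Of 10375 tested genes with an annotated region, 10.7% had a let-7 site, 15.3% a miR-17 site, 13.8% a miR-19 site, 7.73% a miR-92a site and 8.19% a miR-21 site, not matched on length. Sites are written as DNA with up to 16 bases before and 1 after, and capitals mark the match to the seed.
Bmpr2, miR-17 site at base 3877 of the region: gttatggtatcacactGCACTTTt
Bmpr2, miR-21 site at base 6647: aatggacaggagaaacATAAGCTa
Smad6, miR-17 site at base 233: gagaaacaagaaagacGCACTTTg
Smad6, miR-92a site at base 199: taattatttatatatgGTGCAATg
Id2, miR-19 site at base 51: tactttctctttttctTTTGCACa

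Beside these sites, the ratio was 1.00 for Bmpr2 with 10. Of the tested genes with 2 sites it was 0.377 for Smad6, 0.177 for Bambi and 1.72 for Bmpr1a, and of those with 1 it was 1.84 for Id2 and 2.16 for Grem1. With 0 sites it was 0.238 for Bmp4, 0.337 for Id1 and 0.406 for Id3. A match is a stretch of letters and does not show that a microRNA acts there. Whether the sites bear on these ratios was not tested, and site numbers were not adjusted for the length of the region.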

How the data were processed

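Polyadenylated RNA of 1 WT and 1 KO line was sequenced from each end for 50 bases, per the labels' protocols. TopHat 1.4.0, DESeq 1.10.1 and mm9 appear in the submitters' processing notes. How reads were counted, and on which annotation, is not given in the sources used here. The deposited signal is each genotype's mean read count, divided by size factors. They also deposited the ratio (fold) of KO over WT, its log2 value, the p-value and the adjusted p-value, which were copied and not recomputed. Each mean is a sum of whole multiples of 2 steps, and exactly 1 pair of read numbers gave it, within 4e-14 of its value (of 1 for means under 1), for each of 16386 detected WT genes and 16350 KO genes, which gives 4 libraries. The recovery and limma were tested on simulated data. The simulation for limma drew independent counts, without the shared difference between deeper and shallower libraries described below. It therefore does not show how limma performs on these 4 libraries. limma 3.58.1 (R 4.3.3) was fitted to log2(normalised reads + 1) of the 11710 tested genes, with Benjamini-Hochberg adjustment. Intervals came from SciPy 1.17.1. Transcript lengths and 3' untranslated regions came from GENCODE M21 (GRCm38), used without coordinates; 10375 of the tested genes had a region. The 10 genes and all lists were chosen with earlier results of these data known. All 10 are named, with the called pathway genes (up to 6 per role), the core SMADs and the E proteins; Bmp5, Id4, Smad7, Runx2 and Atoh8, and the cell markers with values, were named after their values were seen. Alternatives were other filters, call rules and scaling, and leaving out each library.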

Additional observations from a re-analysis of the deposited data

How the results depend on the processing

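Of 160 ratios recomputed for the 32 named pathway genes under scaling to library totals or with 1 library left out, 139 kept their direction and call, 10 lost the call (1 of them the untested Bmp2), 2 gained it (Runx2) and 9 turned direction. Over libraries left out, those that turned were Bmpr2 (0.865 to 1.14), Smad7 (0.942 to 1.13), Smad9 (0.519 to 1.02), Bmp5 (0.649 to 1.59), Atoh8 (0.779 to 1.26) and Zfp423 (0.0908 to 1.08). With 1 library left out, 3 to 5 of the 10 genes were lower and 0 to 1 higher. Of the pathway list 11 to 16 were lower and 1 to 3 higher, with a median log2 ratio from -0.68 to -0.27. The -0.27 came without the deeper WT library, and the cause was not tested. Shares of all tested genes with a library left out are not given here, so these counts have no background beside them. A rule of 1.5-fold called 5 of the 10 genes lower and 3 higher, and of the list 20 lower and 6 higher, where it called 17.9% of all tested genes lower and 17.3% higher. The authors' adjusted p called 1 of the 10 genes lower and 0 higher (unadjusted p under 0.05 called 3 lower and 2 higher, and 9.91% and 9.46% of all tested genes). Of the list the adjusted p called 8 lower and 0 higher, beside 5.34% and 5.56% of all tested genes. limma called 1 of the 10 genes lower and 1 higher (Id2). Of the list limma called 8 lower and 1 higher, beside 4.14% and 4.61% of all tested genes. The labels give no replicate numbers, so no pairing comes from the design. A limma fit with libraries of like depth rank as a replicate block, chosen after seeing the data, called 5 of the 10 genes lower and 2 higher, and of the list 21 and 6, but it called 36.2% of all tested genes; differences between deeper and shallower library correlated across genes between genotypes (r = 0.571), as a description. Without a filter on low values, Bmp2 was also called lower (6 genes), and the share of all genes without that filter is not given here.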

Other observations

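Part of the 10 genes also differed between the libraries of 1 genotype. In WT the deeper library had at least 1.5 times the normalised value of the shallower one for 5 of the 9 tested genes, where 13.2% of all tested genes did. These were Smad6 (2.82 times), Bmp4 (2.15), Id3 (1.87), Id1 (1.71) and Grem1 (4.49), while Bmpr1a (1.11), Bmpr2 (0.961), Id2 (1.07) and Bambi (1.26) were closer. In KO it was at least 1.5 times higher for 4 of the 9, Id3 (1.69), Smad6 (1.67), Grem1 (1.502) and Bambi (2.00), where 14.6% of all tested genes were, and Bmp4 went the other way (0.736). Of the 43 tested genes of the pathway list, 15 were at least 1.5 times higher in the deeper WT library and 13 in the deeper KO library. Among them, the deeper library had 2.58 times the value of the shallower in WT and 2.32 times in KO for Dlx5. These values were 3.04 and 2.67 for Rgma and 4.03 and 8.42 for Zfp423. What sets the libraries of 1 genotype apart was not tested.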
